A study of Mus musculus with 12 samples.

Results

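The cytosolic ribosomal protein genes encode the proteins of the 40S and 60S subunits of the ribosome that translates nuclear-encoded mRNA. Members were taken by symbol: Rps or Rpl, then digits and at most one letter a or x, together with Rplp0, Rplp1, Rplp2 and Rpsa, with pseudogene rows (-ps) left out. This rule found 76 of the 35976 genes listed, 30 of the small and 46 of the large subunit, and all 76 passed the filter on low counts that left 18853 genes for testing. The rule uses symbols and no measured values, but it was chosen with earlier results of these data known.

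The RNA came from healing scars on the back skin of male mice aged 8 to 12 weeks, cut 6 days before a plastic device was placed on the wound. Tem1 (Cd248, endosialin) is a transmembrane glycoprotein of fibroblasts and pericytes. In Tem1lacZ/lacZ mice the reporter lacZ takes the place of the single Tem1 exon in every cell of the body, on a C57BL/6J background, so the effect cannot be assigned to a cell type. The 4 groups of 3 mice were Tem1WT/WT sham (WTSH), Tem1WT/WT with traction (WTTR), Tem1lacZ/lacZ sham (lacZSH) and Tem1lacZ/lacZ with traction (lacZTR), and traction was 1 mm each day to 8 mm in all. Sham scars had the same wound and device without elongation.

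Ribosomal proteins are made in near-equal amounts because a ribosome holds a single copy of almost all of them, the stalk proteins P1 and P2 being the textbook exception. Their mRNAs are short, abundant and stable. Most begin with a 5′ terminal oligopyrimidine tract (a C at the cap followed by a run of C and T), through which mTOR and the La-related protein Larp1 control their translation. In healing skin, proliferating keratinocytes and matrix-producing fibroblasts are heavy users of ribosomes.

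Libraries held 41536788 to 64644293 counts, and 21855 to 23692 genes had at least 1 count. Cd248, which checks the genotype labels, had 3883 to 16413 counts in the 6 Tem1WT/WT libraries and 0 to 13 in the 6 Tem1lacZ/lacZ libraries. The skin label held: the 5 keratinocyte markers (Krt5, Krt14, Krt1, Krt10, Trp63) summed to 8960 to 40000 CPM (counts relative to the library's total, scaled by TMM) and the 6 fibroblast markers (Col1a1, Col1a2, Col3a1, Dcn, Lum, Pdgfra) to 17400 to 110000 CPM, with no marker at 0 in any library. No pair of replicates agreed within sampling noise.

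The start of the transcript is shown because the tract is what the family shares beyond protein function. RefSeq promoters (build GRCm38.p6) covered 56 of the 76 members in 66 promoters. A C at the annotated start followed directly by at least 4 bases that are each C or T, read on the coding strand, occurred in 13 of the 66, or 19.7%, against 2.51% of all 32851 promoters. Within 10 bases of the annotated start the same run was found in 54.5% of the members' promoters and in 30.7% of all. Windows of 15 bases before and 15 after the annotated start are printed for members on which the results below turn and for both longest tracts, with the tract at the start in capitals and no capitals where the annotated start is not on such a tract.
Rps6, chr4:86857353-86857382, minus strand: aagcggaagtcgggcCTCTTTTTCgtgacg
Rps27, chr3:90213634-90213663, minus strand: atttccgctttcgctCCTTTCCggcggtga
Rplp2, chr7:141447636-141447665, plus strand: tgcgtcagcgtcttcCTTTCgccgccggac
Rpl15, chr14:18270972-18271001, minus strand: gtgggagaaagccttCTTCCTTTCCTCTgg
Rpl35, chr2:39005117-39005146, minus strand: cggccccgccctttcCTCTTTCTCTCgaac
Rps12, chr10:23787195-23787224, minus strand: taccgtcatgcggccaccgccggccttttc
Rps9, chr7:3704026-3704055, plus strand: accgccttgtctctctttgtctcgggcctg
Rpl39, chrX:37085208-37085237, minus strand: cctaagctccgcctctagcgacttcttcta
Rplp2, whose values below differ from the rest of the family, has a tract at its annotated start, as Rps6 and Rps27 do. In Rps9 and Rpl39 a run of C and T crosses the annotated start, which falls on a T. In Rps12 such a run stands a few bases after the annotated start. A start that is annotated some bases off hides a tract, so the absence of capitals says nothing about the mRNA.

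The 76 genes together took 2.44% to 5.63% of all counts in a library. The share was 3.11%, 3.31% and 3.56% in the 3 WTSH libraries and 2.44%, 2.74% and 2.71% in the 3 WTTR libraries. It was 3.46%, 5.63% and 4.53% in lacZSH and 5.18%, 3.41% and 3.74% in lacZTR. The group means were 3.33% ± 0.226 (SD, n = 3) in WTSH, 2.63% ± 0.163 in WTTR, 4.54% ± 1.09 in lacZSH and 4.11% ± 0.937 in lacZTR. Both Tem1lacZ/lacZ groups had higher means and a wider spread than the Tem1WT/WT groups, and the highest values came from lacZSH replicate 2 and lacZTR replicate 1. The sham groups overlapped, since lacZSH replicate 1 lay below WTSH replicate 3, and the traction groups did not. In Tem1WT/WT every WTTR share lay below every WTSH share, while in Tem1lacZ/lacZ sham and traction overlapped. Shares are of raw counts, whereas the fold changes below are scaled by TMM. The TMM factors were 1.031 to 1.067 in WTSH and 0.8612 to 0.9761 in WTTR. In these bulk samples, fewer cells of a type and less RNA per cell cannot be told apart, and a share can rise because other genes fell.

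The order of levels within the family was compared per length, as CPM per kb of the shortest full-length coding transcript in GENCODE vM21. The mean over the 12 libraries ran from 97.8 to 1640 CPM per kb, a 16.8-fold range, with a median of 536 and quartiles of 365 and 734. Rplp0, the base of the ribosomal stalk that recruits elongation factors, was highest at 1640 CPM per kb. Rpl4, which lines the exit tunnel, followed at 1180, and Rpsa, the small-subunit protein also known as the laminin receptor, at 1100. The lowest were Rpl21 (97.8 CPM per kb), Rpl39 (99.1), a very small protein of the exit tunnel, and Rps20 (110). Rps20 has 1 coding transcript in the annotation, with 3706 bases of which 357 code, so its value per kb rests on a long annotated end. The stalk proteins differed among themselves, with Rplp1 at 1070 CPM per kb and its partner Rplp2 at 253.

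**Figure D1:**
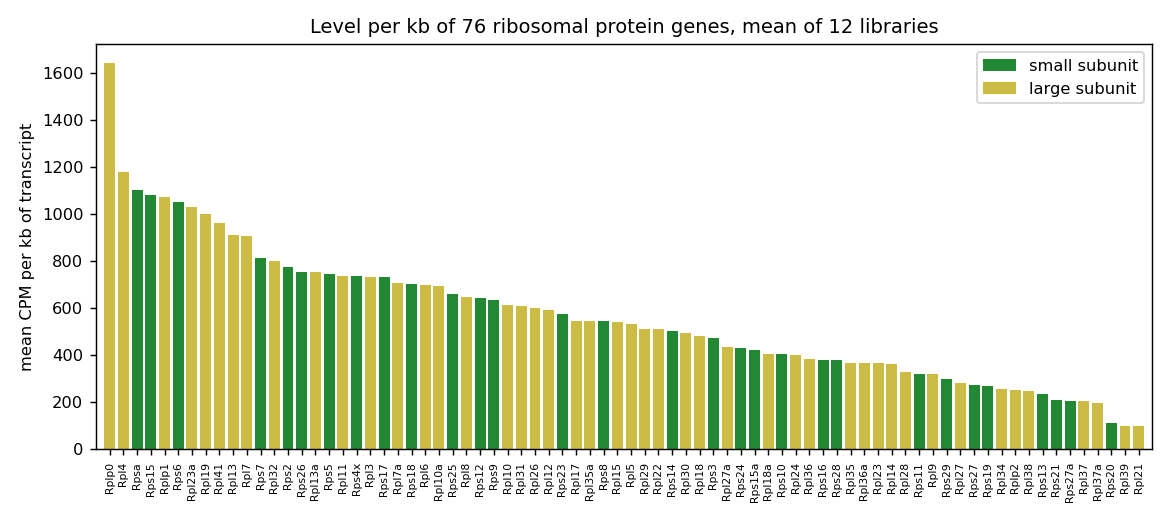
Mean level of each of the 76 genes over 12 libraries in CPM per kb of transcript, in falling order, with small-subunit genes in green and large-subunit genes in yellow. Rplp0 stands alone at 1640 CPM per kb and the last 3 genes lie near 100.

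Counting affects this order, because ribosomal protein genes have many processed pseudogenes and reads that fit several places may be dropped or moved. Of the 76 transcripts, 71 had at least 1 stretch of 100 bases that is found without a mismatch in the annotated transcript of another gene, and in 32 at least 50% of all such stretches were shared. The median was 41.4% and the highest value was 98.4%, in Rps27, shared with Rps27rt and a predicted gene. For Rps12 it was 88.9%, shared with 18 other genes, and for Rpl21 36.8%, shared with 40. For Rps6 it was 83.6%, for Rps27a 69.1%, and for Rplp2 39.1%, all of the latter with Wdr89. GENCODE places other genes within 45 of the members, including 64 small RNAs such as snoRNAs in the introns of 31. How reads with several matches were treated is not given in the sources used here, so levels and differences between members are uncertain to that degree. Comparisons of a gene between groups share this limit in every library.

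The members rose and fell together from library to library. The Pearson r of a member's log2 CPM with the mean of the other 75 over the 12 libraries had a median of 0.965, and 65 of 76 were at 0.9 or above. These points share library depth and composition, so r is a description. The mean log2 CPM over the 76 genes was 9.10 in lacZSH replicate 2 and 9.09 in lacZTR replicate 1, followed by 8.76 in lacZSH replicate 3, and it lay between 8.10 and 8.52 in the other 9 libraries. Relative to the family mean, members moved little, with a median SD of 0.109 on the log2 scale over the 12 libraries. WTTR replicate 3 was where the family held together least: the SD over members was 0.266 there and between 0.0876 and 0.179 elsewhere.

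**Figure D2:**
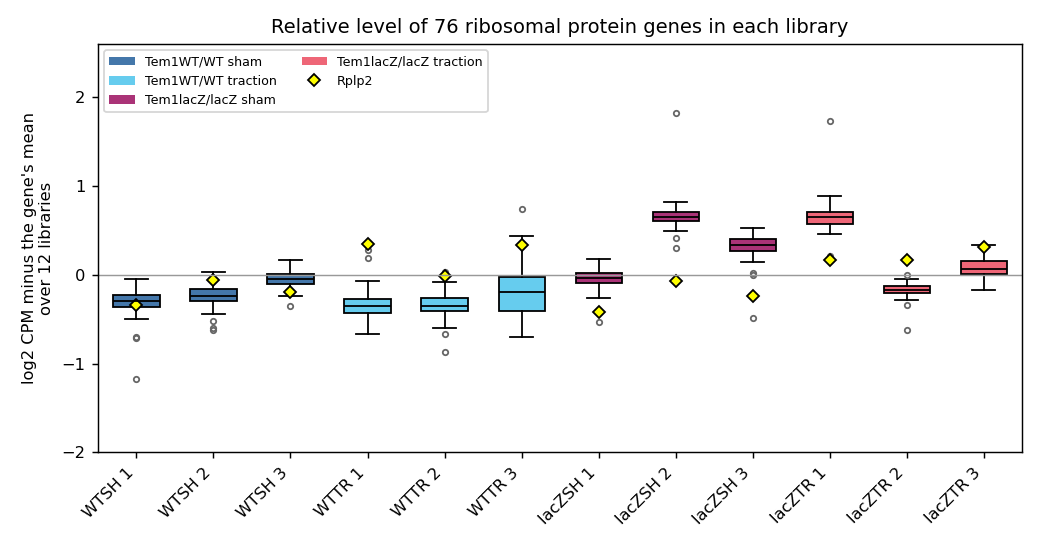
Box plots of log2 CPM minus the gene's own mean over 12 libraries, for the 76 genes in each library (box, quartiles; line, median; whiskers, 1.5 times the quartile range; circles, genes beyond), coloured by group, with Rplp2 as a yellow diamond. The boxes of lacZSH 2 and lacZTR 1 lie highest, the box of WTTR 3 is the tallest, and Rplp2 does not follow the boxes.

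The first comparison asked whether the ribosomal protein genes differed between genotypes. In sham scars 75 of the 76 were higher in Tem1lacZ/lacZ than in Tem1WT/WT, with a median log2 fold change of 0.53 (quartiles 0.43 and 0.64), which is 1.44-fold. The median over all genes tested was -0.01, and 48.6% of them were higher. With traction 75 of 76 were again higher, with a median of 0.50 (quartiles 0.41 and 0.61), or 1.42-fold, against 0.01 over all genes. Small and large subunits were alike, at 0.57 and 0.51 in sham and 0.51 and 0.50 with traction. Under every alternative run the median was above 0 in both treatments, and its size fell to 0.27 in sham and 0.21 with traction after a correction for transcript length and GC content.

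No single member passed the test, however. At an adjusted p under 0.05 (edgeR quasi-likelihood test, Benjamini-Hochberg over all genes) 0 of 76 members were called in sham, where 0.0106% of all genes were, and 0 with traction, where 0.106% were. The smallest adjusted p of a member was 0.409 in sham and 0.0992 with traction. At an unadjusted p under 0.05, 37 members were higher in sham against 5.03% of all genes, and 35 with traction against 11.1%. The number of members at that level, in either direction, moved with single libraries. In sham it was 8 without lacZSH replicate 2 and 62 without lacZSH replicate 1. With traction it was 6 without lacZTR replicate 1 and 52 without lacZTR replicate 2. Without both lacZSH replicate 2 and lacZTR replicate 1 it was 23 in sham and 13 with traction. DESeq2 called 0 members in sham, with 0.128% of all genes, and 3 with traction, with 12.3% of all genes. limma-voom called 0 members in both, with 0.0053% of all genes in sham and 0.0849% with traction. All 3 Tem1lacZ/lacZ libraries lay above all 3 Tem1WT/WT libraries for 38 members in sham (50% of them, against 13% of all genes) and for 33 with traction (43.4%, against 12.9%). The members are not independent of each other, since a library that was high was high for nearly all of them.

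Because both genotype differences had the same direction, their average over both treatments was also tested, a contrast added after the data were seen. Its median over members was 0.54, with 75 of 76 higher and 66 at an unadjusted p under 0.05, where 12.4% of all genes were higher at that level. edgeR again called 0 members, and 0.053% of all genes, with a smallest adjusted p of 0.0693 for Rps12. The number of calls rested on the tool: DESeq2 called 43 members higher, with 15.6% of all genes called, and limma-voom with sample weights called 8, with 2.93% of all genes. Without lacZSH replicate 2 and lacZTR replicate 1, the libraries with the highest share, the median of the average was 0.32, with 74 of 76 higher and 44 at an unadjusted p under 0.05. The medians were then 0.33 in sham and 0.28 with traction. With the length and GC correction the median of the average was 0.25, with 72 of 76 higher and 20 at an unadjusted p under 0.05.

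Rps12, a small-subunit protein of the head of the 40S subunit, had the smallest p in this contrast. It was at 220, 237 and 279 CPM in WTSH, 228, 234 and 217 in WTTR, 316, 491 and 412 in lacZSH, and 539, 291 and 340 in lacZTR. Every Tem1lacZ/lacZ library was above every Tem1WT/WT library. The averaged log2 fold change was 0.76 ± 0.168 (SE), with adjusted p = 0.0693 by edgeR, and 0.61 to 0.85 (adjusted p 0.0486 to 0.184) when any 1 library was left out. DESeq2 (adjusted p = 0.00305) and limma-voom both called it. It was 0.53 without both libraries of highest share and 0.41 with the length and GC correction, with adjusted p of 0.205 and 0.132 by edgeR.

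Rps6, the small-subunit protein phosphorylated by S6 kinase downstream of mTOR, was at 789, 842 and 916 CPM in WTSH and at 912, 1480 and 1170 in lacZSH. With traction it was at 708, 693 and 572 CPM in WTTR and at 1360, 787 and 864 in lacZTR. The sham groups overlapped at their edges, and the traction groups did not overlap. The log2 fold change between genotypes was 0.48 ± 0.244 (SE, adjusted p = 0.456, edgeR) in sham and 0.61 ± 0.245 (adjusted p = 0.153) with traction.

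The stalk proteins Rplp0, Rplp1 and Rplp2, which form the arm where elongation factors dock, were not alike. Rplp0 was at 1920 ± 197 CPM (SD, n = 3) in WTSH, 1810 ± 218 in WTTR, 2710 ± 724 in lacZSH and 2490 ± 719 in lacZTR, and Rplp1 followed with 432 ± 68.2, 462 ± 88.0, 622 ± 165 and 610 ± 187 CPM. Rplp2 was the 1 member of 76 below 0 in both genotype comparisons, with a log2 fold change of -0.04 ± 0.147 (SE) in sham and -0.02 ± 0.147 with traction, a sign that turned with the normalization. Its values are given with traction below.

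Rps27a, made as a fusion of ubiquitin with protein S27a, had the largest fold change and the largest spread. It was at 46.4, 86.3 and 97.3 CPM in WTSH and at 127, 57.3 and 72.3 in WTTR. In lacZSH it was at 72.6, 372 and 106 CPM, and in lacZTR at 348, 68.2 and 127. The log2 fold change of 1.26 ± 0.688 (SE, adjusted p = 0.481, edgeR) in sham and of 1.08 ± 0.685 (adjusted p = 0.333) with traction therefore rested on lacZSH replicate 2 and lacZTR replicate 1. Without the first the value in sham was 0.21, and without the other the value with traction was 0.23. In those libraries Rps27a stood 1.17 and 1.09 above its usual place in the family on the log2 scale. Clhc1 overlaps Rps27a by 160 bases on the opposite strand.

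In sham the genotype difference of Rps27a was followed by those of Rps27 (log2 fold change 0.95 ± 0.307 SE, adjusted p = 0.409, edgeR), a zinc-finger protein of the 40S subunit, and Rpl39 (0.89 ± 0.371, adjusted p = 0.415). Rpl10, which joins the 60S subunit late in assembly, had 0.75 ± 0.247, Rps14, the protein of the 40S platform whose haploinsufficiency underlies the 5q- syndrome, 0.73 ± 0.257, and X-linked Rps4x 0.70 ± 0.250. Rps19, the gene most often mutated in Diamond-Blackfan anaemia, had 0.55 ± 0.256 and Rpl38, needed for translation of some Hox mRNAs, 0.57 ± 0.238. Rpl5 and Rpl11, which bind Mdm2 together with 5S rRNA when assembly fails, had 0.37 ± 0.233 and 0.49 ± 0.248. Rpl3, at the peptidyl transferase centre, had 0.48 ± 0.239, Rpsa 0.44 ± 0.249, Rpl22 0.36 ± 0.198 and Rpl41, the smallest protein of the ribosome, 0.70 ± 0.294. With traction the same 13 genes lay between 0.32 for Rpl39 and 0.60 for Rpl11, none of them called.

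Rps9 was among the 3 members with the lowest log2 fold change in both genotype comparisons, and Rpl37a was so in sham. Rps9, a 40S protein that helps decoding fidelity, was at 411, 429 and 432 CPM in WTSH and 432, 581 and 471 in lacZSH, and at 538, 447 and 449 in WTTR and 547, 473 and 494 in lacZTR. The groups touched or overlapped in both treatments, and the log2 fold changes were 0.22 ± 0.159 (SE) and 0.08 ± 0.159. Rpl37a, a zinc-binding protein of the 60S subunit, had 0.11 ± 0.293 in sham, where it was at 97.5, 142 and 76 CPM in lacZSH, and 0.43 ± 0.293 with traction.

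**Figure D3:**
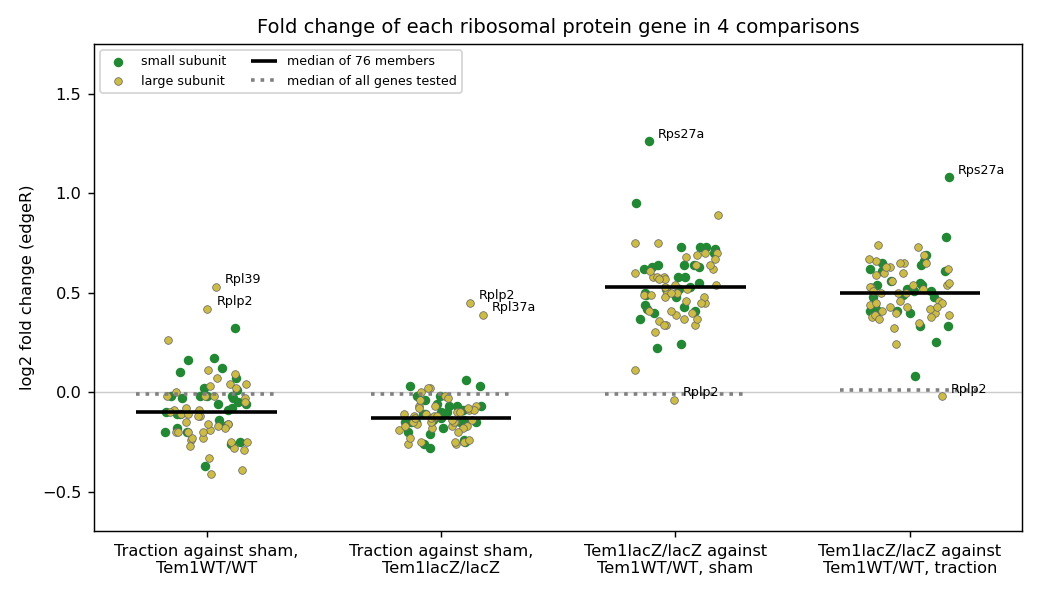
Log2 fold change (edgeR) of each of the 76 genes in 4 comparisons, small-subunit genes in green and large-subunit genes in yellow, with the median of the members (black line) and of all genes tested (dotted line). Genes lie around medians of 0.53 and 0.50 between genotypes and around -0.10 and -0.13 with traction, and Rplp2 is the lowest gene in both genotype comparisons.

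The second comparison asked whether traction altered the family. In Tem1WT/WT scars 58 of the 76 were lower with traction, with a median log2 fold change of -0.10 (quartiles -0.20 and -0.01) against -0.01 over all genes. After the correction for transcript length and GC content 50 of 76 were higher, with a median of 0.08 against 0.07 over all genes. Leaving out 1 library gave medians from -0.16 to -0.02, the latter without WTSH replicate 3, with 32 of 76 higher. edgeR called 0 members, whereas it called 9.15% of all genes, and DESeq2 called 1 member, with 21.6% of all genes, and limma-voom 0, with 3.90%. Only Rplp2 was at an unadjusted p under 0.05, as 31.4% of all genes were. The libraries did not overlap for 20 members, 2 of them higher with traction, which is 26.3% against 35.7% of all genes.

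In Tem1lacZ/lacZ scars 69 of 76 were lower with traction, with a median of -0.13 against -0.01 over all genes. After the length and GC correction the median was -0.01, against -0.02 over all genes. edgeR called 0 members and 0% of all genes, DESeq2 and limma-voom called 0 members each, with 0.123% and 2% of all genes, and 1 member was at an unadjusted p under 0.05, against 8.12% of all genes. For 1 member, Rplp2, the libraries did not overlap, against 12.9% of all genes. The direction turned when either of 2 libraries was left out: the median was 0.08 (61 of 76 higher) without lacZSH replicate 2 and 0.04 (49 of 76 higher) without lacZTR replicate 2. It was -0.33 without lacZTR replicate 1 and -0.15 without both libraries of highest share.

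The interaction of genotype and traction, which tests whether traction acted differently in the 2 genotypes, had a median of -0.02 with 35 members above and 41 below 0, and the median moved from -0.25 to 0.21 as 1 library was left out. edgeR, DESeq2 and limma-voom each called 0 members, with 0%, 0.368% and 0% of all genes called. At an unadjusted p under 0.05 there were 0 members and 8.91% of all genes. The largest sizes were -0.57 ± 0.521 (SE) for Rpl39 and -0.47 ± 0.430 for Rps27, which became 0.02 and -0.01 without WTTR replicate 3, and the median SE of 0.338 leaves differences of that order undetectable with 3 mice per group.

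Rplp2, located at chr7:141447651-141451359 (GRCm38.p6), was the exception with traction. It was at 83.2, 101 and 92.2 CPM in WTSH and at 134, 104 and 133 in WTTR. In lacZSH it was at 78.7, 100 and 89.1 CPM and in lacZTR at 118, 118 and 131. In both genotypes every traction library lay above every sham library, by a narrow margin in Tem1WT/WT. The log2 fold change was 0.42 ± 0.148 (SE, adjusted p = 0.0837, edgeR) in Tem1WT/WT and 0.45 ± 0.148 (adjusted p = 0.598) in Tem1lacZ/lacZ. Averaged over both genotypes, a contrast added after the data were seen, Rplp2 rose by 0.43 ± 0.104 with adjusted p = 0.0341, the 1 member called, where 9.73% of all genes were called and 30.7% were at an unadjusted p under 0.05. The call was lost when any of 9 of the 12 libraries was left out, with adjusted p from 0.0188 to 0.099 over all 12 and a fold change that stayed between 0.40 and 0.50.

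Rplp2 was also the member least like the others, with r = -0.0481 against their mean over the 12 libraries. Wdr89, the gene with which it shares sequence, was at 1.43 to 3.10 CPM and had a log2 fold change of 0.24 ± 0.195 (SE, adjusted p = 0.420) with traction on average. Its partner Rplp1 had 0.09 ± 0.266 in Tem1WT/WT and -0.03 ± 0.266 in Tem1lacZ/lacZ, so the pair of acidic stalk proteins did not move alike in value. That difference between them was not tested.

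Members at the lower end with traction in Tem1WT/WT were Rpl17 (-0.41 ± 0.220 SE), Rpl4 (-0.39 ± 0.230), which both line the exit tunnel, and Rps6 (-0.37 ± 0.244), none called (adjusted p 0.222 to 0.323, edgeR). For Rps6 all 3 WTTR libraries lay below all 3 WTSH libraries, and for Rpl5 too, at 817, 929 and 717 CPM against 983, 1000 and 1110. At the upper end Rpl39 had 0.53 ± 0.369 and Rps27 0.32 ± 0.304, and both turned below 0 (-0.04 and -0.11) without WTTR replicate 3. In that library Rpl39 was at 94.5 CPM, against 35.7 and 41.4 in the other WTTR libraries, and Rps27 at 120, against 61.4 and 55.8. Relative to the family mean, Rpl21 and Rpl17 were 0.51 low there and Rpl39 was 0.93 high on the log2 scale.

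**Figure D4:**
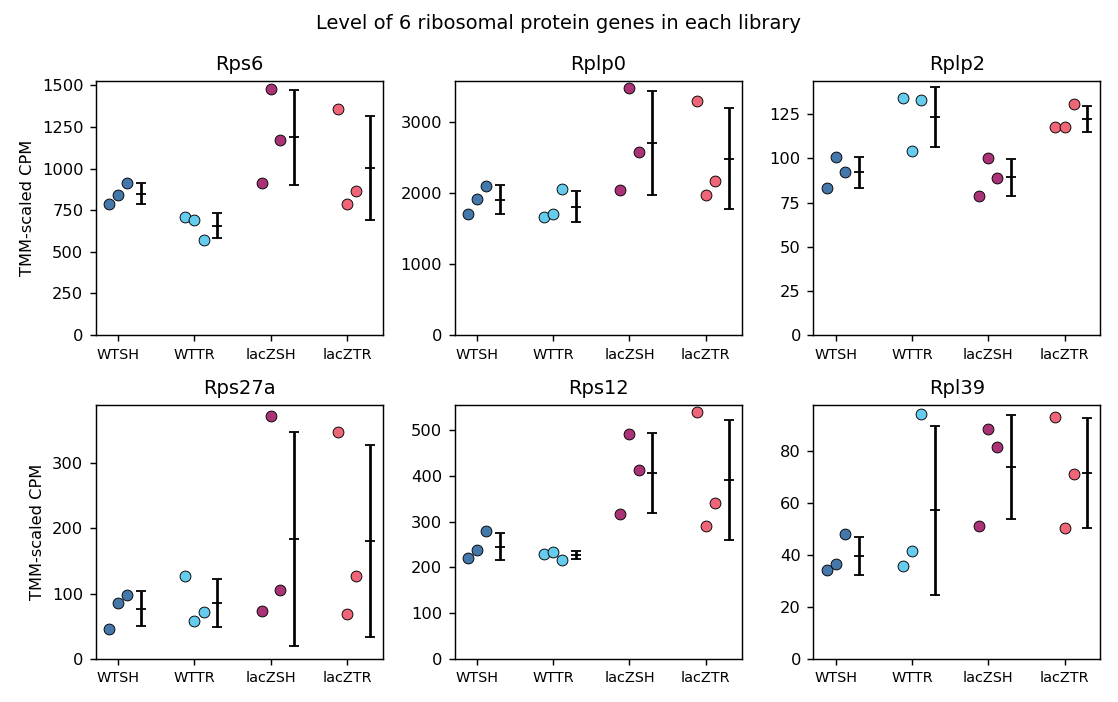
TMM-scaled CPM of 6 ribosomal protein genes in each of the 12 libraries (points, in order of replicate number), with the mean and SD (n = 3) of each group beside them. Rplp2 is higher in both traction groups, Rps12 is higher in both Tem1lacZ/lacZ groups, and Rps27a is high in lacZSH replicate 2 and lacZTR replicate 1.

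Genes outside the rule that belong to ribosomes were measured as well. Fau, which fuses a ubiquitin-like protein with S30, was at 160 ± 15.4 CPM (SD, n = 3) in WTSH, 181 ± 27.7 in WTTR, 273 ± 63.3 in lacZSH and 241 ± 74.9 in lacZTR. Rack1, the 40S scaffold protein, was at 868 ± 75.6, 882 ± 113, 1120 ± 278 and 1020 ± 263 CPM in the same order. Both were higher in both genotype comparisons, by log2 fold changes of 0.21 to 0.77, and none was called. Rps3a1, which the rule leaves out for its trailing digit, was at 1210 ± 96.9, 993 ± 85.2, 1710 ± 332 and 1470 ± 415 CPM.

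Paralogs of ribosomal proteins were measured too. Rpl10l, a testis paralog, had 0 counts in all libraries. In CPM over WTSH, WTTR, lacZSH and lacZTR, Rpl22l1 was at 8.28, 11.7, 15.6 and 15.6, Rpl39l at 2.54, 4.46, 3.72 and 4.18, Rps27l, a p53 target, at 30.1, 30.8, 44.2 and 37.9, and Rps27rt at 3.67, 5.35, 7.45 and 6.80. Rpl36al was at 67.9, 68.7, 112 and 98.5 CPM, Rpl7l1 at 98.9, 102, 111 and 99.7, and Rps4l at 27.1, 35.1, 28.1 and 31.4. Rpl3l, the striated-muscle paralog of Rpl3, was at 29.8, 5.47 and 1.24 CPM in WTSH and at 1.33, 0.574 and 0.575 in WTTR. Of the 8 paralogs tested it was the 1 called with traction in Tem1WT/WT, where 9.15% of all genes were. It was lower, with a log2 fold change of -3.88 ± 0.949 (SE, adjusted p = 0.0373, edgeR). The 5 skeletal muscle markers moved with it, at 617 to 7410 CPM in WTSH and 165 to 1170 in WTTR, and muscle tissue in the sample as a part of this value was not tested.

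Pathways around the ribosome were read from lists of their known genes. Of 77 mitochondrial ribosomal protein genes, which build a separate ribosome for the organelle's own mRNAs, 75 were higher in Tem1lacZ/lacZ sham (median 0.33) and 65 with traction (median 0.24), 0 of them called by edgeR. With traction in Tem1WT/WT 1 of the 77 was called, where 9.15% of all genes were. It was Mrps31, which was lower (-0.73 ± 0.165 SE, adjusted p = 0.0329). Of 20 translation factors whose mRNAs carry the tract, 15 and 16 were higher in the genotype comparisons, with medians of 0.33 in sham and 0.30 with traction. Eef1b2, a nucleotide exchange factor of elongation, had the highest values (0.54 ± 0.231 and 0.57 ± 0.231) and Pabpc1, the poly(A)-binding protein, the lowest (-0.50 ± 0.216 and -0.40 ± 0.216). These lists had 0 genes called in the genotype comparisons.

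Genes that make and control ribosomes had medians nearer to 0 or below it. Of 47 assembly factors tested the medians were 0.15 in sham and 0.05 with traction, and of 17 genes of RNA polymerase I, which transcribes rRNA, 0.13 and 0.18. The 19 genes of mTOR, Myc and tract control had medians of -0.26 and -0.27, opposite in sign to the family, with 5 and 7 of 19 higher. These 19 genes include both activators and inhibitors, so the sign of their median does not give a direction of the pathway. Their lowest gene was Mycn in sham (-0.81 ± 0.615 SE) and Myc with traction (-0.56 ± 0.207, adjusted p = 0.133). With traction in Tem1WT/WT, 10 of these 19 genes were higher, the median was 0.04, and 1 gene was called in each direction, where 9.15% of all genes were called. Akt1, a kinase upstream of mTOR, rose (0.87 ± 0.191, adjusted p = 0.0326), Deptor, an inhibitor of mTOR, fell (-0.77 ± 0.180, adjusted p = 0.0341), and Mycn at -1.86 ± 0.633 was not called. Of 10 genes of the Mdm2 and p53 response to failed assembly, 1 was called with traction in Tem1WT/WT, where 9.15% of all genes were. It was Sesn2, which was higher (0.94 ± 0.257, adjusted p = 0.0458).

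The genes most like the family, by r of log2 CPM with the members' mean over the 12 libraries, were Eif3k (0.992), a subunit of initiation factor 3, Eef1b2 (0.986), Cysrt1 (0.977), Polr2f (0.976), a small subunit of RNA polymerases, and Rpl37rt (0.973). Among the 100 genes most like it the median transcript had 1123 bases, and among the 100 with the most negative r it had 6534.5, against 2796.5 for all genes tested outside the family. The members' own longest coding transcripts had a median of 882 bases.

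Transcript length moved with the family across the libraries. In lacZSH replicate 2 the family stood 0.65 above its mean over the 12 libraries on the log2 scale, the 1560 other genes with transcripts under 1000 bases stood at 0.31, and the 2912 genes of 5000 bases or more at -0.34. In lacZTR replicate 1 these values were 0.64, 0.30 and -0.20. In WTTR replicate 2 they were -0.34, -0.26 and 0.14. In WTSH replicate 1, however, the family was at -0.31 with short genes at 0.01 and long genes at 0.14. Genes between these lengths stayed between -0.06 and 0.06 in all libraries. After each library was corrected for length and GC content the genotype medians were 0.27 in sham and 0.21 with traction, against 0.03 and -0.04 over all genes. Of the 76 members 73 and 68 were then higher and 9 and 7 were at an unadjusted p under 0.05. The part of RNA quality in this was not tested.

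**Figure D5:**
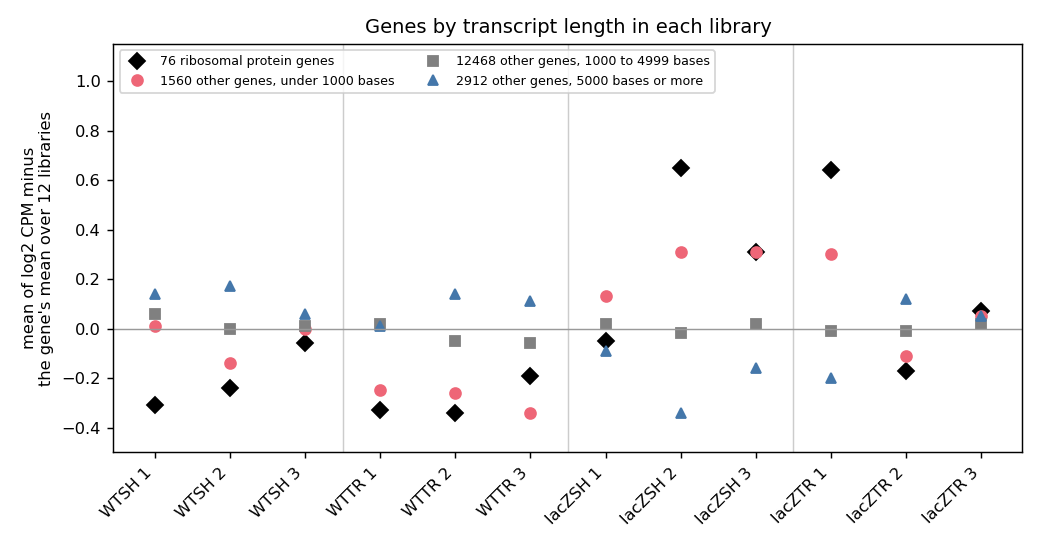
Mean over genes of log2 CPM minus the gene's mean over 12 libraries, in each library, for the 76 ribosomal protein genes (black) and for other genes in 3 classes of transcript length. In lacZSH 2 and lacZTR 1 the ribosomal protein genes and the short genes are highest and the long genes lowest.

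Markers of cell types also differed between libraries, and not all in the direction of the family. Summed over the 5 keratinocyte markers the level was 8960 to 14800 CPM in WTSH, 14800 to 18200 in lacZSH, 12700 to 19700 in WTTR and 13300 to 40000 in lacZTR, with the highest value in lacZTR replicate 1. The 6 fibroblast markers were at 25900 to 41100 CPM in WTSH, 17400 to 29700 in lacZSH, 43700 to 110000 in WTTR and 22300 to 49500 in lacZTR, and on the log2 scale were lowest in lacZSH replicate 2. The 5 macrophage markers (Adgre1, Csf1r, Cd68, Lyz2, C1qa) were at 1730 to 3050, 1450 to 2840, 2910 to 3550 and 1690 to 3110 CPM in the same order, again with no marker at 0. The 4 endothelial markers (Pecam1, Cdh5, Kdr, Tie1) were at 232 to 364, 197 to 331, 705 to 785 and 304 to 519 CPM in that order, and all 4 were lower in Tem1lacZ/lacZ with traction at an unadjusted p under 0.05 (median log2 fold change -0.81). The 5 neutrophil markers (S100a8, S100a9, Csf3r, Cxcr2, Retnlg) were at 31.6 to 88.4, 144 to 184, 280 to 6720 and 236 to 517 CPM, with 4 of 5 lower at that level in the same comparison (median -2.91). The part of cell composition in the genotype difference of the ribosomal protein genes was not tested.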

How the data were processed

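Poly(A) RNA from 12 scars, 3 mice per group, was sequenced as read pairs. Per the study's methods and the submitters' processing notes, the authors trimmed reads with fastp 0.20.0, aligned them with HISAT2 2.1.0 to GRCm38 and counted them per gene with featureCounts 2.0.0. The deposited files hold raw counts per gene symbol, not normalized, and 2 date-like symbols that occur again were kept as separate genes. The annotation, the strand setting and the treatment of reads with several matches are not given in the sources used here. Short genes and genes with pseudogene copies are the ones such settings affect most.

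From the counts, genes were filtered with filterByExpr by group, scaled by TMM and fitted in 1 model of 4 groups with 8 residual degrees of freedom by edgeR 4.0.16 (robust quasi-likelihood, R 4.3.3), with Benjamini-Hochberg adjustment over all 18853 genes and a threshold of 0.05. The study itself used DESeq2, which was run here as an alternative (version 1.42.0) with limma 3.58.1. Log2 CPM carried a prior count of 2. The SE is the fold change divided by the square root of its F statistic. Transcript lengths came from GENCODE vM21, start sequences and gene positions from RefSeq. The fit was tested on simulated data with genes drawn independently and changes, in WTTR only, larger than those of any member here. That test does not measure the power for changes of the size seen in the family. Genes were named by a rule: members called, the 3 highest and 3 lowest in each comparison, per kb and in departure from the family, members with named roles, ribosomal paralogs and fusion partners, the extremes of other lists, and the 5 genes most like the family. Rpl37a and Rps9 fall under it as extremes, and Rpl15, Rpl35, Rps3a1 and Wdr89 were chosen after their values or sequences were seen. The members and lists were chosen with earlier results of these data known. Counting precision is high (the members held 1193369 to 2338742 counts in a library), so the spread between mice sets the error. Mice sharing a replicate number are different animals. The result for 1 gene of these lists is not reported here.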

Additional observations from a re-analysis of the deposited data

How the results depend on the processing

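All median fold changes of the family between genotypes stayed above 0 under every alternative. Leaving out 1 library moved them from 0.28 to 0.67 with traction, from 0.33 to 0.66 in sham and from 0.40 to 0.63 on average. With the length and GC correction the median with traction moved from 0.50 to 0.21, and that of all genes from 0.01 to -0.04. The members' mean log2 level had an SD of 0.284 between replicates, which is the spread of single libraries and not of a difference between groups. With 0 members called by edgeR, counts changed in few settings, given here with the share of all genes called. For traction in Tem1WT/WT DESeq2 called 1 (21.6%) and the length and GC correction gave 1 (12.8%). Leaving out a library gave 0 to 1 there (14.7% for the 1, without WTTR replicate 2). For genotype with traction DESeq2 called 3 (12.3%). For genotype on average DESeq2 called 43 (15.6%) and limma-voom 8 (2.93%). Leaving out a library gave 0 to 2 there (5.24% for the 2, without WTTR replicate 2). For traction on average, 1 member was called (9.73%). It was 0 at an adjusted p under 0.01, with a 2-fold limit added or with upper quartile scaling (7.84% for the last). Leaving out a library gave 0 to 3 there (17.6% for the 3, without lacZTR replicate 1). Upper quartile scaling moved the median of all genes by up to 0.14. Without the 10 highest genes in the denominator the share was 3.68% in WTSH and 2.99% in WTTR.

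Signs near 0 turned for single genes. Rplp2 between genotypes with traction became 0.02 with at least 10 counts in every library, 0.12 with upper quartile scaling, 0.11 by limma-voom and 0.05 without both libraries of highest share (-0.13 to 0.08 leaving out a library), in sham 0.02 with upper quartile scaling (-0.15 to 0.05), and on average 0.07 and 0.02 with upper quartile scaling and limma-voom (-0.08 to 0.02). Rps9 became -0.13 with traction and -0.06 on average, and Rpl37a -0.33 in sham and -0.23 on average, with the length and GC correction. Rpl37a was -0.11 by limma-voom in sham, -0.18 in sham and -0.03 on average without both libraries of highest share, and -0.18 to 0.28 in sham leaving out a library. For traction in Tem1lacZ/lacZ, Rps20 was -0.13 by limma-voom and -0.03 without both libraries of highest share (-0.22 to 0.28), and leaving out a library gave Rpl39 -0.04 to 0.75 and Rps27 -0.11 to 0.53 for traction in Tem1WT/WT, Rpl39 -0.03 to 0.37 for traction on average and -0.78 to 0.02 for the interaction. The causes were not tested.

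The labels do not say whether a replicate number marks a shared batch. Same-numbered libraries of different groups had correlations of -0.324 to 0.25, with 8 of 18 pairs over 0.1. Differently numbered libraries were not compared in this way, so these values cannot tell whether a batch was shared. With the replicate number as a block, edgeR called 0 members in all 5 comparisons of the design, with 0% to 7.78% of all genes called. It called 0 for genotype on average (0.0371% of all genes) and 1, as before, for traction on average (7.91%). The block changed no call of a member, the members at an unadjusted p under 0.05 became 28 in sham and 21 with traction, and the genotype medians were 0.53 in sham and 0.51 with traction.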
